A study of Homo sapiens with 3 samples.

Results

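Cells that had crossed into the lower channel of an organ-on-chip under stretch were compared with cells that had stayed in its upper channel. The cells were HCT116, a human colorectal carcinoma line, carrying a histone H2b-GFP label, and were sorted for GFP after 6 days. Members were chosen by library and by cell quality: at least 500 genes, at least 1000 unique molecular identifiers (UMIs, each standing for 1 captured RNA molecule), and a mitochondrial share of UMIs of 20% or less. Cells of a small APOA1-high population, with 5 or more UMIs and at least 0.05% of UMIs from APOA1, APOA2, FABP1, TTR and AGR2, were left out. This gave 1951 stretched bottom cells of 3513 barcodes and 19685 stretched top cells of 25169, together 21636 of the 38432 cells kept in the series. The remaining 16796 cells came from the top channel of a chip without stretch and served as a second level for each gene. All 3 groups shared the line, the label, the kind of chip and the sort, and differed in channel and in peristalsis-like stretch. Between the top libraries, stretch and the individual chip cannot be told apart. Each group was 1 library, so channel and library cannot be told apart, no test between groups was possible, and every interval covers counting error only.

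The bottom library differed from both top libraries in depth. Its median cell held 40387 UMIs and 6237 genes, against 9317 UMIs and 2984 genes in the stretched top and 10873.5 UMIs in the not stretched top library. Totals were 76641034, 204557219 and 205530788 UMIs in that order. A median of 4.09% of UMIs came from mitochondrially encoded genes in bottom cells, 10.4% in stretched top cells and 9.63% in not stretched top cells. Filtering removed 44.5% of bottom, 21.8% of stretched top and 35.7% of not stretched top barcodes. Over the mitochondrial limit were 36.1%, 13.6% and 27.0% of all barcodes in the same order. The bottom and stretched top libraries shared 61 barcodes, of which 9 were kept in both. Because depth and channel move together, results below are also given within shared ranges of UMIs per cell: 20000 to 60000 UMIs (998 bottom cells with a median of 43150 UMIs, 1379 top cells with a median of 23177) and 20000 to 30000 UMIs (153 cells with a median of 25882, 1258 with a median of 22840.5). The windows share their limits but not their medians, which stay apart most in the wider one. The narrower window was chosen after seeing the data. The part of depth in the remaining differences was not tested.

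**Figure D1:**
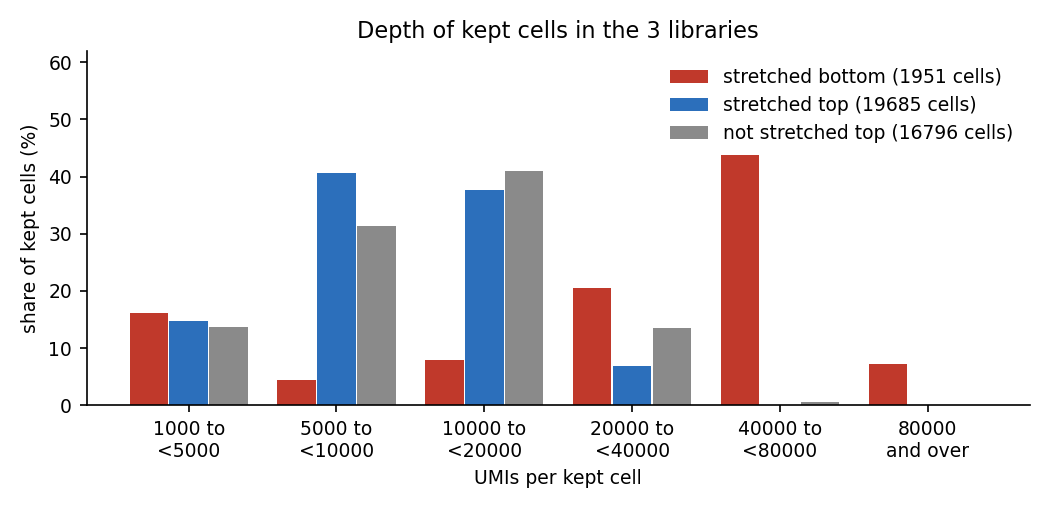
Share of kept cells (vertical axis, percent) in 6 ranges of UMIs per cell (horizontal axis) for the 3 libraries (bars). Most bottom cells lie at 20000 UMIs or more (1394 of 1951), while 1379 of 19685 stretched top cells do.

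All 3 libraries carried epithelial markers of the line, though not every marker listed. EPCAM, an epithelial adhesion molecule, stood at 501 counts per 1000000 UMIs (CPM) in the bottom, 383 CPM in the stretched top and 380 CPM in the not stretched top library. Keratin genes were close between the libraries, with KRT19 at 1527, 1507 and 1625 CPM and KRT8 at 971, 954 and 938 CPM. Of the epithelial markers listed, CDX2 (9.34, 5.97 and 6.82 CPM) and CDH17 (0.0913, 0.347 and 0.598 CPM) stayed under 10 CPM in each library. Of 10 leukocyte and 10 fibroblast markers, 0 reached 10 CPM in any of the libraries compared. Of 12 endothelial markers 1 did (EGFL7, at 118 against 102 CPM), and the list summed to 129 CPM in the bottom and 106 CPM in the stretched top library. Several defining endothelial markers were nevertheless higher in the bottom library at low levels, such as CDH5 (0.744 against 0.0587 CPM), MMRN1 (1.02 against 0.0342 CPM) and CLDN5 (0.770 CPM against 0 UMIs). These lay in few cells: 6 of 1951 bottom cells held UMIs of at least 3 of 10 endothelial markers (the list without EGFL7 and ESAM), against 0 of 19685 stretched top and 0 of 16796 not stretched top cells. Those 6 cells had a median of 40613.5 UMIs and 0 EPCAM UMIs.

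Interferons are secreted proteins that signal through receptors and JAK kinases to transcription factors. With IRF9 these form a complex that binds the interferon-stimulated response element (ISRE) in promoters and switches on effector genes, many of them antiviral. Tumor cell lines can hold this program at a low standing level, which also sets how much MHC class I they display. The same cells meet other programs on a chip, among them the heat shock response to misfolded protein, the hypoxia response, and the WNT and NOTCH pathways of the intestinal epithelium.

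The promoters of the interferon effector genes carry the element in plain sequence, and those below belong to the genes with the lowest ratios of bottom over stretched top that had a motif outside annotated exons. ISG15 was added after its values were seen because it has the highest level of the list. The sequences come from RefSeq promoter windows on GRCh38.p14 (hg38), are read 5′ to 3′ on the gene's strand, and have in capitals the motif GAAA, any 2 bases, GAAA, or its reverse complement.
IFI27: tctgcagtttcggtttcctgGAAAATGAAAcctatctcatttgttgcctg
IFI6: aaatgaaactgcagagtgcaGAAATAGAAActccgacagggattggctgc
IFIT1: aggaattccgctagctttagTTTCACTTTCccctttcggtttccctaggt
IFIT3: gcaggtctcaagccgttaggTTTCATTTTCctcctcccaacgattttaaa
ISG15: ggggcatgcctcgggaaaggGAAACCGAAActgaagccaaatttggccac
They lie upstream of the RefSeq start at chr14:94110621-94110670 (IFI27, plus strand), chr1:27672256-27672305 (IFI6, minus strand), chr10:89392487-89392536 (IFIT1, plus strand), chr10:89327821-89327870 (IFIT3, plus strand) and chr1:1013370-1013419 (ISG15, plus strand). Searched on both strands over 250 bases before to 50 bases after the start, overlapping matches counted as 1 gene, the motif was present in 3.57% of 35116 promoters. Of the 30 interferon effector genes tested below, 26 matched a promoter by symbol or ID and 20 of these (76.9%) held it. Among 7124 tested genes with a promoter the share was 2.72%. It was 39.4% (13 of 33) among genes lower by 4-fold or more in bottom cells and 2.33% among genes at least 1.5-fold higher. Apart from the RNA sensor gene IFIH1, those 13 genes are members of the effector list. Their share therefore repeats the share of that list and is not a separate result. A match is a description of the letters and not of binding.

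Each gene's UMIs were added up across a library's kept cells, and the log2 ratio of CPM + 1 was taken between libraries for the 8824 genes that reached 10 CPM in either. Called genes are those at least 1.5-fold apart on that scale. In the bottom library 705 genes were higher (7.99% of those tested) and 912 lower (10.3%), with a median log2 ratio of 0.00. Of the genes tested, 624 reached 10 CPM in the stretched top library alone, so that they could only be lower, and 220 in the bottom library alone, so that they could only be higher. At a 2-fold threshold, 114 genes (1.29%) were higher and 272 (3.08%) lower, and at 4-fold 9 (0.102%) and 43 (0.487%). Scaling to totals that omit mitochondrial genes and ribosomal proteins turned the 1.5-fold split to 396 higher and 1613 lower and the median log2 ratio to −0.15. Under it the higher genes of the G2/M, S phase and heat shock lists below numbered 11, 5 and 7. Of the lists described below, it turned the sign of the medians of epithelial genes (0.02 to −0.11), YAP and TAZ targets (0.01 to −0.12) and immediate early genes (0.10 to −0.03). As a yardstick, the stretched top against the not stretched top library, which shared their channel, gave 14 genes (0.154%) higher and 60 (0.662%) lower of 9069. Those libraries had medians of 9317 and 10873.5 UMIs per cell, against 40387 in the bottom library. The yardstick therefore does not cover that gap in depth. Within 20000 to 60000 UMIs, 416 genes (4.74%) were higher and 711 (8.09%) lower. Of the 705 and 912 genes, 328 and 629 were also past 1.5-fold in the same direction there. In the narrow window the split was 1047 higher (11.5%) and 420 lower (4.62%), and 241 and 301 of the genes were also past the threshold.

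**Figure D2:**
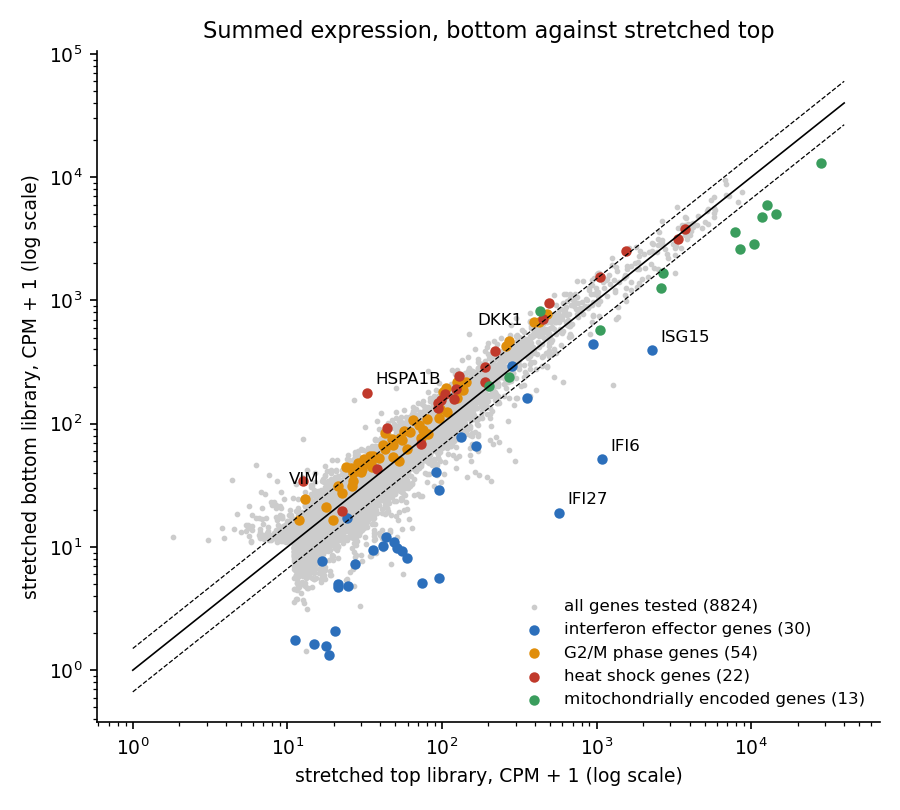
CPM + 1 of each tested gene in the stretched top (horizontal) and stretched bottom library (vertical), both on log axes, with the line of equality and dashed lines at 1.5-fold. Of 30 interferon effector genes (blue), 28 lie below the lower dashed line, with IFI27 at 18.0 against 569 CPM, as do 10 of 13 mitochondrially encoded genes (green). Above the upper dashed line lie 24 of 54 G2/M (orange) and 13 of 22 heat shock genes (red), and 0 of both lie below the lower one.

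The 7 lowest ratios among all genes tested belonged to interferon effector genes. Of the 40 effector genes listed, 30 were tested, and 28 of these were called lower in bottom cells and 0 higher, with a median log2 ratio of −2.15, against 10.3% of all genes lower and a median of 0.00. Of these 30, 18 passed the minimum through the top library alone, so that they could only be lower. The other 10 listed genes were under 10 CPM in both libraries. Among them IFIT2 stood at 0.418 against 8.20 CPM, RSAD2 at 0.352 against 2.35 CPM and MX1 at 0.274 against 1.27 CPM. Summed over all 40 genes, the list stood at 1680 CPM in the bottom, 6743 CPM in the stretched top and 8764 CPM in the not stretched top library.

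IFI27, an interferon-induced mitochondrial protein (ENSG00000165949, chromosome 14, 94104836 to 94116698), stood at 18.0 CPM in the bottom, 569 CPM in the stretched top and 822 CPM in the not stretched top library. That was 31.7-fold lower than in the stretched top (95% interval 30.04 to 33.4). IFI6, which limits viral replication at the endoplasmic reticulum (ENSG00000126709, chromosome 1, 27666061 to 27672218), stood at 50.4, 1087 and 1415 CPM in the same order, 21.6-fold lower (20.9 to 22.3). IFIT1, which binds RNA without a host cap mark, stood at 4.59, 94.4 and 146 CPM, and BST2, the tetherin that holds virions at the membrane, at 4.06, 73.0 and 175 CPM. OAS1, a synthase of the second messenger that activates RNase L, had 26 UMIs (0.339 CPM) in the bottom library, against 17.7 and 24.9 CPM. In each of these genes the bottom library was the low one and both top libraries were high, the not stretched one highest.

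The ubiquitin-like modifier ISG15 and its machinery were lower too. ISG15 stood at 393, 2299 and 3184 CPM in the bottom, stretched top and not stretched top libraries, 5.85-fold lower than in the stretched top (5.78 to 5.92). USP18, which takes ISG15 off its targets, stood at 3.86, 23.5 and 31.6 CPM. The conjugating enzyme gene UBE2L6 stood at 8.42, 34.8 and 45.5 CPM, and the ligase gene HERC5 at 9.25, 40.8 and 46.6 CPM. Smaller differences were seen for EIF2AK2, the RNA-activated kinase PKR, at 65.0, 164 and 181 CPM. IFITM3, a block to viral entry, stood at 439, 945 and 1018 CPM, and IFITM genes are near-identical copies whose counts may be split between them. The 2 tested effectors that were not called were LY6E, at 290, 284 and 313 CPM, and IFIT5, at 16.2, 23.2 and 26.0 CPM.

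**Figure D3:**
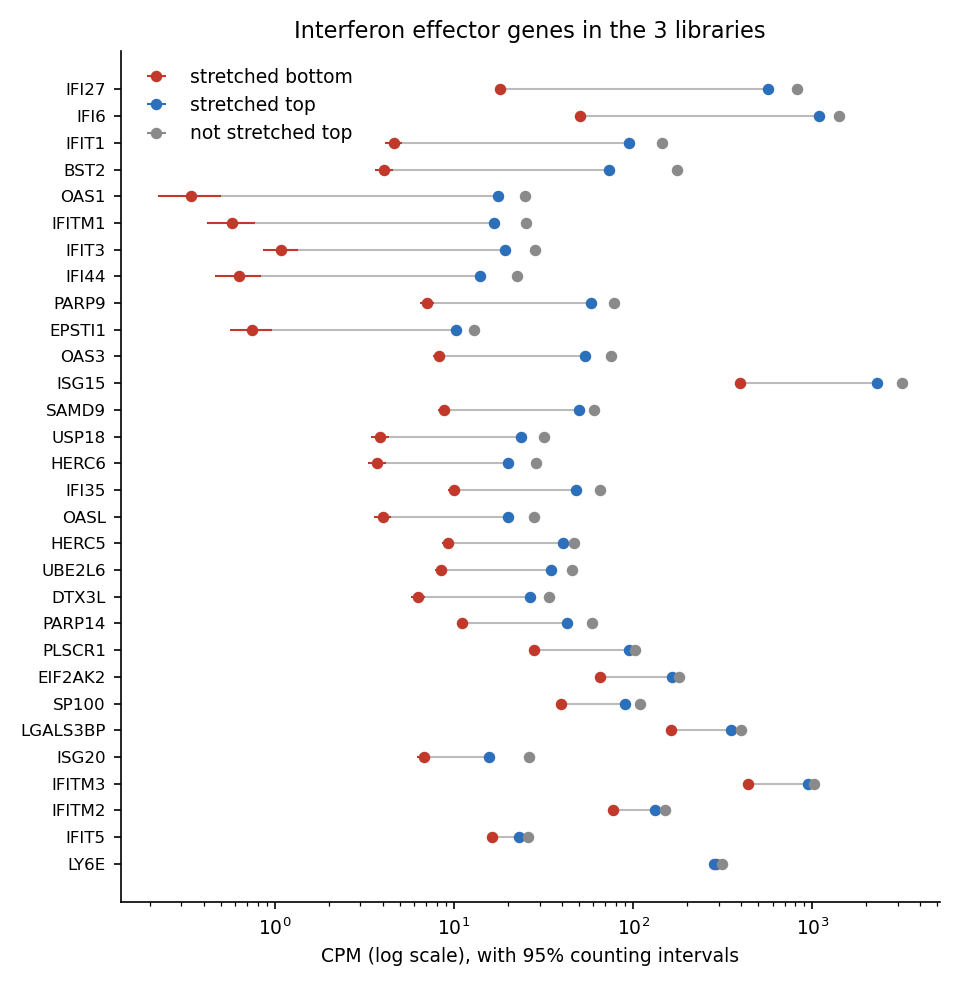
CPM on a log axis (horizontal) of the 30 tested interferon effector genes (rows, ordered by log2 ratio) in the 3 libraries (points), with 95% counting intervals as bars. The bottom library (red) is lowest for 29 genes, and for LY6E it stands at 290 CPM between 284 and 313 CPM.

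The genes that carry the signal differed by role. STAT2, a part of the complex that binds the element, stood at 10.8, 25.7 and 34.2 CPM in the bottom, stretched top and not stretched top libraries, and IRF7, a factor that amplifies interferon production, at 10.9, 50.03 and 66.8 CPM. In the narrow window the log2 ratio of STAT2 was −0.29, short of 1.5-fold, against −1.18 over all cells, and that of IRF7 was −1.72 against −2.10. Receptor genes did not follow them. IFNGR2, a subunit of the interferon gamma receptor, was the 1 called higher, at 54.3, 35.4 and 34.3 CPM. In all, 6 of 13 signalling genes tested were called lower and 1 higher (median −0.27), and in the narrow window 3 and 2 of 14 (median 0.06). The RNA sensor genes IFIH1 (3.82, 25.9 and 29.6 CPM) and DDX58 (13.1, 63.2 and 81.4 CPM) were lower, as were 6 of 8 sensing genes tested (median −0.82). Some of these calls had a fixed direction, because the gene reached 10 CPM in the stretched top library and not in the bottom library. These were IFIH1 and TMEM173 among the sensing genes and SOCS3 among the signalling genes.

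Interferon genes themselves were barely detected. Of 8 ligand genes 0 reached 10 CPM. The lambda interferon gene IFNL1 had 0 UMIs in the bottom library, which allows up to 0.0391 CPM from 3 counts, and 137 UMIs (0.670 CPM) in the stretched top library. IFNL3 had 0 against 87 UMIs and IFNL2 0 against 43 UMIs, and these copies are near-identical. The UMIs lay in few top cells. At 3000 UMIs 0.0973% of stretched top cells had an IFNL1 UMI and 0.0487% an IFNL3 UMI, with variances over means of 5.52 and 6.84. The limit from 3 counts treats UMIs as independent. With a gene in so few cells, 0 UMIs among 1951 bottom cells cannot show absence. IFNB1 had 0 against 5 UMIs. IFNE, an epithelial interferon, was present in both, with 23 UMIs (0.300 CPM) against 98 UMIs (0.479 CPM).

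MHC class I genes were lower by less. Of 14 genes tested for display and peptide supply, 11 were called lower and 1 higher (median −0.92). PSMB9, an immunoproteasome subunit, stood at 9.69, 48.0 and 68.8 CPM in the bottom, stretched top and not stretched top libraries. NLRC5, the transactivator of these genes, stood at 2.79, 10.5 and 14.2 CPM. PSMB9, NLRC5 and HLA-F reached 10 CPM in the stretched top library and not in the bottom library, which fixed their direction. HLA-B stood at 105, 266 and 308 CPM, with the caution that HLA genes share long stretches. The shared light chain B2M, named after its values were seen, stood at 701, 1333 and 1556 CPM. PSMB10, the 1 gene called higher (41.5 against 12.4 CPM), overlaps a neighbour on its strand over 64.4% of its last 1000 exonic bases, so its reads cannot be assigned with certainty. At 20000 to 60000 UMIs 8 members were lower and the median was −0.66, and in the narrow window 4 were, with a median of −0.22.

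Cell by cell, the interferon difference lay in most cells. With every cell thinned to 3000 UMIs, which left out 242 bottom and 1186 stretched top cells, the median bottom cell held 4 UMIs of the 40 effectors. The median held 19 among stretched and 25 among not stretched top cells. In the bottom library 76.1% of cells were under the stretched top's 10th percentile of 7 UMIs, and 0.878% reached its median. At that depth 10.7% of bottom cells had an IFI6 UMI against 83.7% of stretched top cells, and 3.34% against 53.1% had one of IFI27. The little that was left was unevenly spread: the 20 bottom cells with the most IFI27 UMIs held 51.9% of them, and for IFI6 26.4%. At 3000 UMIs per cell the variance of IFI6 UMIs over their mean was 4.54 in the bottom and 3.07 in the stretched top library.

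The interferon difference was close to as large between cells in the same range of UMIs. In 6 ranges of UMIs per cell, the summed effectors stood between 1520 and 1844 CPM in bottom cells, and in 4 ranges between 6082 and 7280 CPM in stretched top cells. From 20000 up to 40000 UMIs, where both libraries had many cells, they stood at 1844 CPM over 400 bottom cells and 6082 CPM over 1371 top cells. The median log2 ratio of the tested effectors was −1.98 in both depth windows, with 28 of 30 and 27 of 30 lower. Within a cell cycle phase, called as described below, it was −1.86 in G1, −2.18 in S and −2.37 in G2/M cells.

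**Figure D4:**
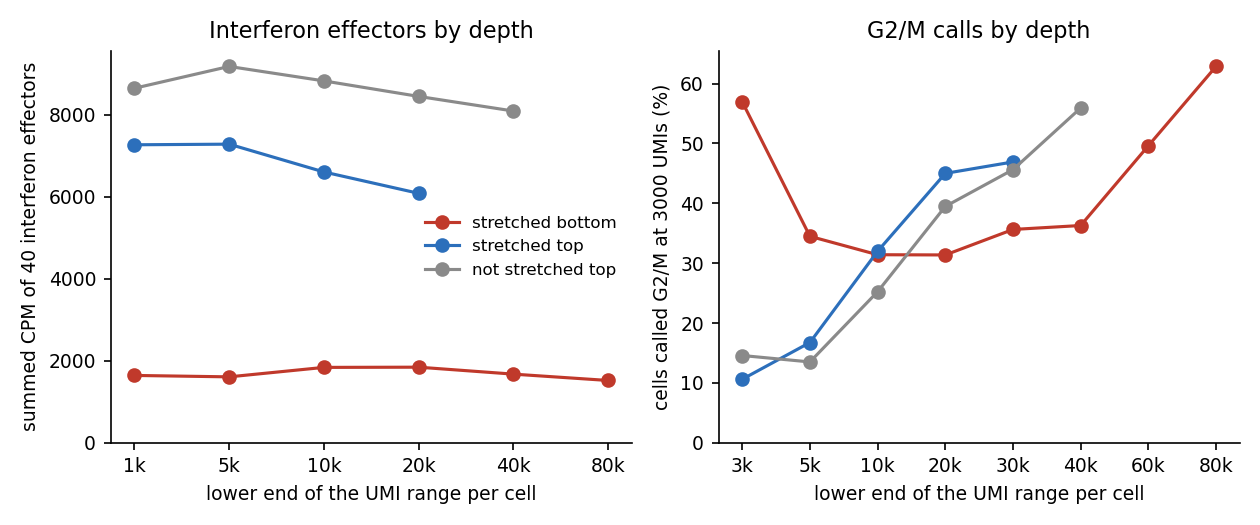
Left, summed CPM of the 40 interferon effector genes (vertical) by range of UMIs per cell (horizontal, lower end of each range) in each library; ranges with 8 or fewer cells are not drawn. Right, percent of cells called G2/M at 3000 UMIs by range. On the left the bottom line stays between 1520 and 1844 CPM below both others; on the right the lines cross.

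Cell cycle genes stood higher in bottom cells, but here depth moved with the result. The G2/M list had 24 of 54 tested genes past 1.5-fold on the higher side and 0 on the lower (median 0.51). The S phase list had 11 and 0 of 41 (median 0.41), beside 7.99% of all genes higher. The mitotic kinesin gene KIF23 stood at 83.8, 42.1 and 49.3 CPM in the bottom, stretched top and not stretched top libraries. The mitotic kinase gene CDK1 stood at 195, 105 and 101 CPM. DSCC1, which loads the replication clamp, stood at 60.5, 29.9 and 28.6 CPM. Within 20000 to 60000 UMIs 0 G2/M genes were higher and 1 lower (median −0.06), and in the narrow window 0 and 9 (median −0.13). There CDK1 had a log2 ratio of −0.73, against 0.89 over all cells.

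Phase calls showed the same dependence. They are scored from the same S phase and G2/M lists, so they are not a separate readout. At 3000 UMIs per cell 40.3% of bottom cells (exact Clopper-Pearson interval 37.9 to 42.6) were called G2/M against 24.4% of stretched top cells (23.8 to 25.03) and 23.1% of not stretched top cells (22.4 to 23.8). G1 calls were 20.8%, 46.0% and 47.3%. In cells of 20000 to 60000 UMIs, thinned to the same depth, the order of G2/M calls turned to 35.4% in bottom and 45.3% in stretched top cells. At 20000 to 30000 UMIs the shares were 31.4% (24.1 to 39.4) and 45.0% (42.2 to 47.8), and G1 calls were 35.3% and 19.9%. In the stretched top library G2/M calls climbed from 10.6% between 3000 and 5000 UMIs to 45.0% between 20000 and 30000, and in the bottom library from 31.4% between 20000 and 30000 to 62.9% at 80000 and over. The shallowest bottom range, 72 cells between 3000 and 5000 UMIs, had 56.9%. Free RNA was not measured, and its part in these calls was not tested.

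Some cell cycle brakes stood lower in bottom cells. CDKN1C, an inhibitor of cyclin-dependent kinases that is imprinted, stood at 4.40, 23.05 and 26.4 CPM in the bottom, stretched top and not stretched top libraries, 5.24-fold lower than in the stretched top (4.69 to 5.87). Its log2 ratio was −1.94 in the 20000 to 60000 window and −1.45 in the narrow one. CCNG2, a cyclin of resting cells, stood at 6.85, 15.9 and 17.8 CPM, and its ratio went from −1.10 over all cells to −0.46 in the narrow window. Of 18 brakes tested 4 were called lower and 1 higher, beside 10.3% and 7.99% of all genes. Of the 18, 3 reached 10 CPM in the stretched top library alone, CDKN1C and CCNG2 among them, which fixed their direction.

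Chaperone genes of the cytosol were higher. Of 22 heat shock genes tested, 13 were called higher in bottom cells and 0 lower, with a median of 0.64. HSPA8, the constitutive HSP70, stood at 959, 490 and 579 CPM in the bottom, stretched top and not stretched top libraries. Its co-chaperone genes DNAJB1 (91.0, 43.3 and 47.4 CPM) and DNAJB4 (33.5, 11.6 and 11.1 CPM) were 2.10-fold and 2.90-fold higher than in the stretched top. HSPA1B, an inducible HSP70, stood at 178, 31.6 and 46.2 CPM, but it has a near-identical copy, HSPA1A, and 49.8% of its last 1000 exonic bases overlap another gene. The HSP90 genes did not differ in this way, with HSP90AA1 at 3776 against 3715 CPM and HSP90AB1 at 3162 against 3379 CPM. In the 20000 to 60000 and the narrow windows 7 and 3 of the 22 were higher, with medians of 0.30 and 0.29.

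One heat shock promoter outside annotated exons held the element (GAA, TTC and GAA with any 2 bases between them), searched on both strands, which 0.490% of all promoters and 4 of 20 matched heat shock genes held. It is shown with the element in capitals.
DNAJB6: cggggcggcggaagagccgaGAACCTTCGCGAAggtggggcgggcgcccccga
The window lies at chr7:157336853-157336905 (hg38, plus strand). DNAJB6 itself, an HSP40 that keeps proteins from aggregating, stood at 134 CPM in the bottom, 93.0 CPM in the stretched top and 91.1 CPM in the not stretched top library, short of 1.5-fold.

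Some chaperones of the endoplasmic reticulum and genes of the amino acid response were higher. Of 20 reticulum chaperone genes 4 were called higher and 0 lower (median 0.44), and 7 and 13 were in the 2 windows (medians 0.51 and 0.83, beside −0.02 and 0.13 for all genes). HYOU1, a large reticulum chaperone, stood at 49.0, 27.4 and 32.9 CPM, and CRELD2, a secreted stress protein, at 120, 63.0 and 66.4 CPM in the bottom, stretched top and not stretched top libraries. Of 18 integrated stress response genes 7 were higher and 1 lower (median 0.38). The amino acid carrier pair SLC3A2 (344, 146 and 163 CPM) and SLC7A5 (152, 74.3 and 82.9 CPM) and the pseudokinase gene TRIB3 (40.8, 19.7 and 22.2 CPM) were each at least 2.04-fold higher than in the stretched top. The 1 lower gene was CEBPB, a transcription factor of the same response, at 42.1, 65.7 and 76.8 CPM.

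The promoter element of reticulum stress genes, CCAAT and CCACG with any 9 bases between them, was found in 6 of 19 matched reticulum chaperone genes and in 0.0769% of all promoters. The cell cycle element TTTGAA was found in 31 of 46 matched G2/M genes (67.4%) and in 15.2% of all promoters. Both motifs were added after the values had been seen.

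Over all kept cells, mitochondrial RNA and the nuclear genes for the same machine lay on opposite sides. Of 13 mitochondrially encoded genes, 10 were called lower in bottom cells and 1 higher (median −1.09). MT-CYB, the cytochrome b gene, stood at 2869, 10440 and 9896 CPM in the bottom, stretched top and not stretched top libraries, and MT-ND4L, the 1 higher gene, at 821, 433 and 309 CPM. In the narrow window the count was 2 lower and 2 higher (median −0.17), so that this difference moved with depth. The filter on mitochondrial UMIs also acts on this list. Nuclear genes of oxidative phosphorylation were 9 of 42 higher and 0 lower (median 0.35). Among them the succinate dehydrogenase subunit gene SDHD stood at 144, 72.8 and 75.4 CPM. Mitochondrial ribosome genes were 17 of 77 higher and 0 lower (median 0.40, and 0.00 in the narrow window), with MRPL39 at 58.9, 27.7 and 30.02 CPM.

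Hypoxia genes were lower. Of 19 tested, 11 were called lower in bottom cells and 0 higher (median −0.62). NDRG1, a hypoxia-induced differentiation gene, stood at 49.0, 152 and 122 CPM in the bottom, stretched top and not stretched top libraries. The glucose transporter gene SLC2A1 stood at 53.4, 127 and 92.6 CPM, and the mitophagy receptor gene BNIP3L at 24.8, 73.4 and 79.0 CPM. ALDOC, a glycolytic aldolase, stood at 12.9, 53.8 and 55.0 CPM, in a glycolysis list with 3 of 19 lower and 1 higher. The 1 higher, ALDOA, overlaps a neighbour on its strand over 76.3% of its last 1000 exonic bases, so its call is uncertain. NDRG1 varied with depth in the top library, from 461 CPM in cells of 1000 to 5000 UMIs to 101 CPM between 20000 and 40000, while it stood between 43.5 and 76.6 CPM over the 6 bottom ranges. In the windows 8 and 4 hypoxia genes were lower (medians −0.37 and −0.17).

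**Figure D5:**
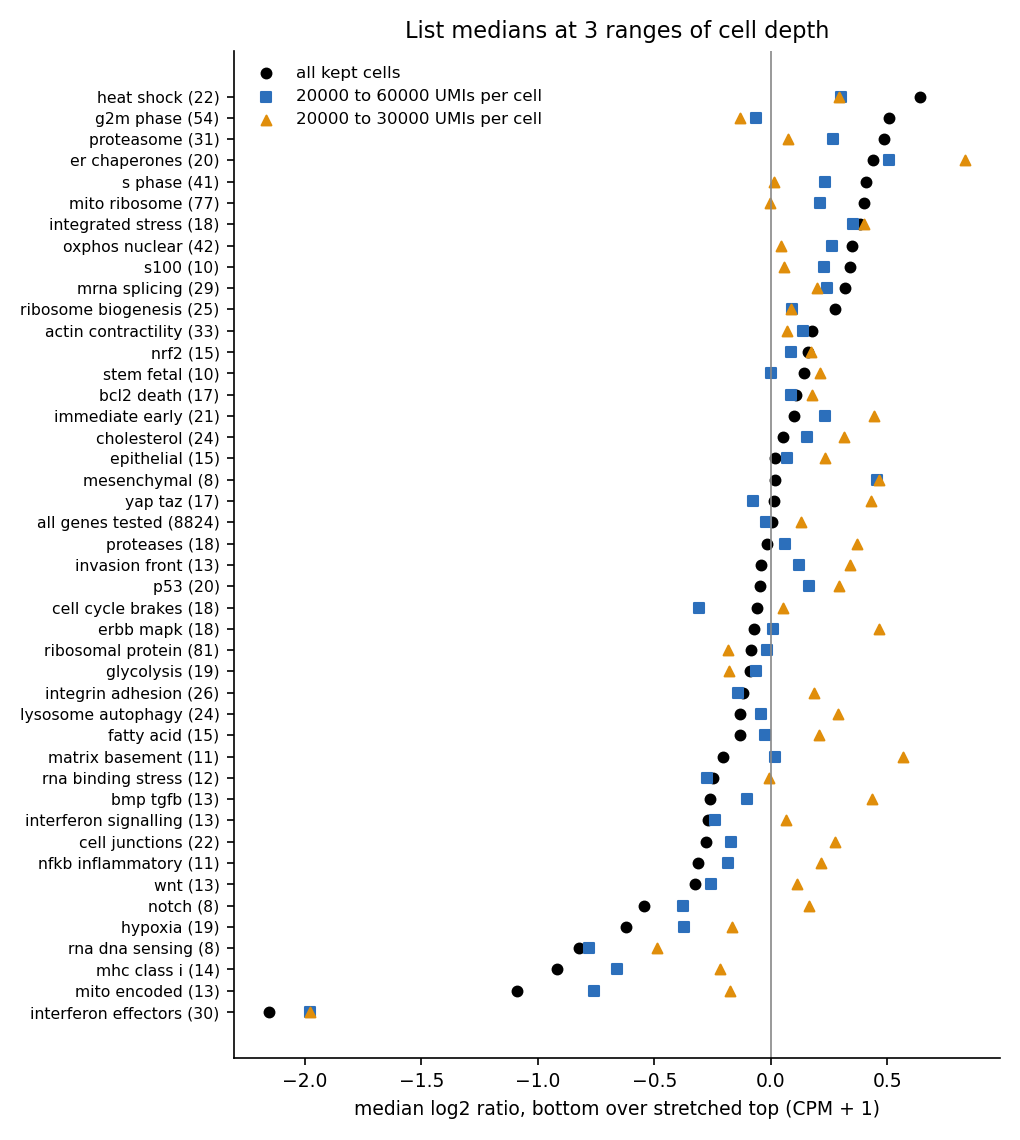
Median log2 ratio of bottom over stretched top (horizontal) for each list with at least 8 genes tested (rows, number tested in parentheses), over all kept cells (circles), at 20000 to 60000 UMIs (squares) and at 20000 to 30000 UMIs per cell (triangles). Interferon effectors lie at −2.15, −1.98 and −1.98, while G2/M genes move from 0.51 to −0.13.

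In the WNT pathway DKK1 was the gene with the largest ratio among those tested. This WNT antagonist (ENSG00000107984, on chromosome 10 from 52314296 to 52318042) is secreted, and it stood at 537 CPM in the bottom, 148 CPM in the stretched top and 149 CPM in the not stretched top library, 3.63-fold higher than in the stretched top (3.58 to 3.69). At 3000 UMIs 51.8% of bottom cells had a DKK1 UMI against 23.4% and 20.03%. Its level climbed with depth in the top library, from 105 to 184 CPM over 4 ranges, and stood between 314 and 569 CPM over the 6 bottom ranges. The log2 ratio was 1.85 over all cells, 1.43 at 20000 to 60000 UMIs and 1.10 in the narrow window. Of 13 WNT genes tested, DKK1 was the 1 called higher and 2 were called lower. Both of the latter reached 10 CPM only in the top libraries, so the minimum fixed their direction. These were NOTUM, a secreted WNT deacylase (3.46, 10.6 and 10.5 CPM), and the receptor gene EPHB2 (4.81, 12.9 and 17.4 CPM).

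Some NOTCH pathway genes and the epithelial transcription factor genes ELF3 and KLF5 were among the lower ones. NOTCH3, a receptor, stood at 3.64, 12.5 and 15.2 CPM in the bottom, stretched top and not stretched top libraries, and HES4, a target repressor, at 188, 404 and 465 CPM. Of 8 NOTCH genes tested 4 were lower and 0 higher (median −0.55, and 0.16 in the narrow window). NOTCH3 reached 10 CPM in the stretched top library and not in the bottom library, which fixed its direction. HES1 and JAG1 turned sign in the narrow window, to 0.38 and 0.19. ELF3, an epithelial transcription factor, stood at 24.9, 71.4 and 91.0 CPM, 2.87-fold lower than in the stretched top (2.73 to 3.01). KLF5, a factor of the crypt, stood at 19.5, 40.1 and 38.9 CPM. The transcription factor gene CDX2 went the other way, at 9.34, 5.97 and 6.82 CPM (log2 ratio 0.57). It was under 10 CPM and so not among the genes tested. The epithelial list had 3 of 15 lower and 0 higher, with a median of 0.02.

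Genes tied to invasion did not move as 1 group. TNFRSF12A, the receptor for TWEAK, stood at 271, 114 and 131 CPM in the bottom, stretched top and not stretched top libraries, 2.37-fold higher than in the stretched top (2.32 to 2.41). PLAU, the urokinase protease, stood at 34.9, 21.9 and 19.5 CPM, and the integrin subunit gene ITGB1 at 291, 189 and 172 CPM. The other way over all cells went ITGB4, the hemidesmosome integrin subunit, at 82.1, 143 and 101 CPM. Its log2 ratio of −0.79 was 0.04 in the narrow window and −0.29 against the not stretched top library, both short of 1.5-fold. So did S100A4, a motility-linked calcium-binding protein, at 1670, 3208 and 2566 CPM, and TIMP2, a metalloprotease inhibitor, at 18.9, 55.7 and 56.2 CPM. Of 13 invasion front genes tested 2 were higher and 2 lower, and of 18 protease genes 1 and 4. Of 26 integrin and adhesion genes 1 was higher and 2 lower, and of 22 junction genes 0 were higher and 4 lower. With 7.99% of all genes higher and 10.3% lower, lists of this size hold a few called genes at the background share. YAP and TAZ target genes were 4 of 17 higher and 0 lower, with a median of 0.01.

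VIM, the mesenchymal intermediate filament gene (ENSG00000026025, chromosome 10, 17228259 to 17237593), stood at 26.9, 8.04 and 6.06 CPM in the bottom, stretched top and not stretched top libraries, 3.35-fold higher than in the stretched top. This value rested on few cells. The 6 bottom cells with endothelial markers held 1268 of the 2061 bottom VIM UMIs, beside 0 of 38369 EPCAM UMIs and 4 of 117049 KRT19 UMIs. Without them the log2 ratio of VIM went from 1.63 to 0.33, short of 1.5-fold. In all, 4 of the 705 higher and 1 of the 912 lower genes were short of the threshold without these cells. They were VIM, CYR61, MCUB, TRAPPC4 and MPP7, named after their values were seen. At 3000 UMIs 2.98% of bottom and 1.94% of stretched top cells had a VIM UMI. Of 8 mesenchymal genes tested VIM was the 1 higher, and 3 were lower. VIM reached 10 CPM in the bottom library and not in the stretched top library, which fixed its direction.

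UMIs of KRT7 and SULT6B1 were also uneven among bottom cells. The 20 bottom cells with the most UMIs of the gene held 40.8% of those of KRT7, a simple epithelial keratin, and 44.8% of those of the sulfotransferase gene SULT6B1. Over the 224 tested genes named here or in the lists' leading members, the median was 7.79%, and KRT8, KRT18 and KRT19 lay near it at 7.66%, 8.88% and 6.42%. KRT7 stood at 22.2 against 6.78 CPM in the bottom and stretched top libraries. Both KRT7 and SULT6B1 reached 10 CPM in the bottom library and not in the stretched top library, which fixed their direction.

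The remaining lists held smaller groups of called genes. Among genes of the oxidative stress response 3 of 15 tested were higher and 0 lower. HMOX1, which degrades heme, stood at 60.9, 29.1 and 25.7 CPM in the bottom, stretched top and not stretched top libraries, with log2 ratios of 1.04, 1.01 and 0.99 over all cells and in the wide and narrow windows. FTL, the ferritin light chain that stores iron, stood at 5780, 3336 and 3498 CPM, and its ratio was smaller in the windows (0.79, 0.64 and 0.22).

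Immediate early genes went both ways, with 5 of 21 higher and 4 lower. JUN, a subunit of the AP-1 factor, stood at 91.0, 49.4 and 64.9 CPM in the bottom, stretched top and not stretched top libraries, and its log2 ratio was 0.87 over all cells and 1.34 in the narrow window. IER5 stood at 14.2, 27.5 and 29.6 CPM, with ratios of −0.91 and −0.89. Of 33 actin and contractility genes 5 were higher and 0 lower. RHOB, a small GTPase of the actin and endosome systems, had ratios of 1.06 and 1.253 (113, 53.7 and 49.9 CPM), while ACTB, cytoplasmic beta actin, had 0.64 and 0.29 (1949, 1252 and 1272 CPM).

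Genes of protein turnover and RNA processing had called members on the higher side, beside 7.99% of all genes higher. Proteasome genes were 6 of 31 higher and 0 lower, with a median of 0.49 that was 0.07 in the narrow window, where the median of all genes was 0.13. Splicing genes were 5 of 29 higher and 0 lower, with medians of 0.32 and 0.20. SRSF7, a splicing factor that binds exon enhancers, stood at 438, 227 and 266 CPM in the bottom, stretched top and not stretched top libraries and kept a ratio of 0.79 in the narrow window, against 0.95 over all cells. Ribosome biogenesis genes were 7 of 25 higher and 0 lower, with medians of 0.28 and 0.09. Cytosolic ribosomal protein genes did not lean this way, with 6 of 81 higher and 3 lower.

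Growth factor, matrix and lipid genes had more lower than higher calls over all cells and more higher than lower calls in the narrow window. All genes moved the same way, from 7.99% higher and 10.3% lower to 11.5% and 4.62%, with a median of 0.13 in the narrow window. Of 18 ERBB and MAPK pathway genes 1 was higher and 4 lower, and in the narrow window 6 and 0. EGFR, the epidermal growth factor receptor, stood at 83.2, 137 and 156 CPM in the bottom, stretched top and not stretched top libraries, and its log2 ratio was −0.71 over all cells and −0.30 in the narrow window. EPHA2, an ephrin receptor, was the 1 higher, at 41.0, 22.9 and 25.3 CPM, with ratios of 0.81 and 1.31. Of 11 matrix and basement membrane genes 0 were higher and 2 lower, and the 2, the laminin subunit genes LAMB1 and LAMB2, had ratios of −0.88 and −0.75 that turned to 0.38 and 0.40. Of 15 fatty acid genes 0 were higher and 4 lower, against 1 and 0 in the narrow window. Lysosome and autophagy genes were 0 of 24 higher and 4 lower. Among them NPC2, which moves cholesterol out of lysosomes, stood at 64.2, 122 and 113 CPM and had ratios of −0.91 and −0.74.

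Genes with overlapping ends were frequent at the top of the ranking. Of all tested genes, 3.37% overlap a neighbour on the same strand over at least 20% of their last 1000 exonic bases, which is where 3′ reads fall. The share was 32.5% (37 of 114) among genes at least 2-fold higher in the bottom library, 9.50% among those 1.5-fold higher and 2.74% among those 1.5-fold lower. Of the 12 highest genes 5 did, HSPA1B, NME2, PAM16, C11orf98 and HIST1H3J, and their values are uncertain. Leaving all such genes out gave 638 higher (7.48%) and 887 lower (10.4%) of 8527. Highest among the remaining genes were SULT6B1 at 33.8, 3.39 and 1.59 CPM in the bottom, stretched top and not stretched top libraries, the noncoding LINC00854 at 44.9, 5.29 and 10.9 CPM, and JSRP1 at 11.1, 0.826 and 0.521 CPM. The Rab GTPase regulator gene EVI5L followed at 74.0, 11.7 and 13.2 CPM. SULT6B1, LINC00854 and JSRP1 reached 10 CPM in the bottom library and not in the stretched top library, so that they could only be higher. Outside the interferon genes, the lowest were ZFPM1, a zinc finger cofactor of GATA factors (5.04, 54.9 and 45.6 CPM), the transcriptional coactivator gene CITED4 (0.444, 12.3 and 10.3 CPM) and the tRNA thiolation gene CTU1 (2.35, 28.4 and 27.7 CPM). ZFPM1, CITED4 and CTU1 reached 10 CPM in the stretched top library and not in the bottom library, so that they could only be lower.

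Gene length moved with the ratio, and base content and chromosome little. With tested genes split into 5 equal groups by span, the shortest group (median 6.29 kb) had a median log2 ratio of 0.20, with 16.3% higher and 9.08% lower. In the longest group (median 174 kb) it was −0.21, with 1.93% higher and 16.3% lower. In the narrow depth window these medians were 0.08 and 0.19. By GC content of the last 500 bases of the longest transcript the medians of 5 such groups ran from −0.06 to 0.06. Chromosome medians lay between −0.07 and 0.05, apart from the mitochondrial genome at −1.09.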

How the data were processed

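Single-cell RNA was measured in 3 libraries, 1 per group. The authors deposited raw counts (UMIs of each gene in each barcode), made with Cell Ranger 7.0.0 per the file headers, on hg38 per the submitters' processing notes. The annotation version is not given in the sources used here. The labels' protocols give trypsin harvest, GFP sorting, a 10x 3′ kit aimed at 10000 droplets, and 12 PCR cycles.

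Kept cells' counts were summed per library over 19912 genes and scaled to CPM. Ratios are log2 of CPM + 1 for genes reaching 10 CPM on either side, called at 1.5-fold. Fold intervals are exact conditional binomial at 95%, CPM intervals exact Poisson. A count of 0 allows up to 0.0391 CPM in the bottom and 0.0147 CPM in the stretched top library, taking UMIs as independent. Phases were called with scanpy 1.11.5 from the S phase and G2/M lists on cells thinned to 3000 UMIs. No doublet caller was run, and the 5% of cells with the most UMIs were left out as an alternative. Spans and shared 3′ ends came from GENCODE release 29, matched for 19902 of 19912 gene IDs, and promoter sequences from RefSeq GRCh38.p14, matched for 7124 of 8824 tested genes. The ratio and thinning steps were tested on simulated data. The TMM alternative used edgeR 4.0.16 (R 4.3.3), all else Python 3.11.15, numpy 2.4.6, scipy 1.17.1 and pandas 2.3.3. Named genes were the 12 highest and 12 lowest ratios, up to 4 leading members of each list, the 8 highest-level called genes and the 8 largest window ratios per direction, EPCAM, VIM, DKK1, cell markers and interferon genes. The members and lists were chosen with earlier results of these data known.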

Additional observations from a re-analysis of the deposited data

How the results depend on the processing

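No paired analysis was possible because each group has 1 library, and for the same reason no library could be left out. The window of 20000 to 30000 UMIs and the removal of 6 endothelial-marker cells were chosen after seeing the data. Against 705 higher genes, the count was 349 with stricter cell filters, 396 with totals without mitochondrial and ribosomal genes, 416 at 20000 to 60000 UMIs, 411 in G2/M cells, 432 at a minimum of 50 CPM and 114 at 2-fold. Against 912 lower genes, it was 1613 with those totals, 420 at 20000 to 30000 UMIs, 1586 at a minimum of 1 CPM, 225 at 50 CPM, 272 at 2-fold and 1783 against the not stretched top library. A stricter minimum or threshold leaves fewer genes to call, and for the rest the cause was not tested. Without endothelial-marker cells 705 were higher and 922 lower. The median log2 ratio of interferon effectors stayed between −2.65 and −1.64 over the alternatives.

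At 20000 to 30000 UMIs 18 of the named genes called changed sign. The log2 ratio was −0.10 for HSPE1 and CDCA3, −0.0763 for H2AFZ, −0.0801 for TYMS, −0.73 for CDK1 (−0.0682 at 20000 to 60000), 0.51 for BMPR2 and SOCS3, 0.46 for PSAP, 0.40 for LAMB2 and ADAM10, 0.38 for LAMB1 and HES1, 0.23 for SCD5, 0.21 for SCD, 0.19 for JAG1, 0.12 for CD44, 0.0821 for TP53INP1 and 0.0436 for ITGB4. Of 208 named genes called, 102 stayed past 1.5-fold under every alternative that kept threshold and minimum.

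In the bottom library G1, S and G2/M calls were 20.8%, 39.0% and 40.3% at 3000 UMIs. G1 and S were 18.5% and 42.4% without thinning and 24.5% and 32.9% at 10000 UMIs, and the narrow window gave 35.3%, 33.3% and 31.4%. In the stretched top library they were 46.0%, 29.6% and 24.4%, against 43.0%, 33.2% and 23.8% without thinning, 35.9%, 28.3% and 35.7% at 10000 UMIs, 25.6%, 38.5% and 35.9% with stricter filters and 19.9%, 35.1% and 45.0% in the narrow window. The cause was not tested. Genes under 10 CPM in both libraries lie outside these counts.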
